A study of Saccharomyces cerevisiae with 4 samples.

Results

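The mRNAs of the yeast peroxiredoxins and thioredoxins were followed through an RNA immunoprecipitation of Whi3, an RNA-binding inhibitor of the G1 cyclin Cln3. The 10 genes were the peroxiredoxins TSA1, TSA2, AHP1, PRX1 and DOT5, the peroxidase HYR1, the thioredoxins TRX1, TRX2 and TRX3, and the thioredoxin reductase TRR1. They were found by name among the 5738 coding probes of the array, and all 10 have a probe. They were chosen by measured values, the ratios of immunoprecipitate to total RNA, in which AHP1 and TSA1 lie near the bottom of the array. These ratios are therefore given as a description and no test is given for AHP1 or TSA1. A value on each of the 4 arrays was found for 8 of the 10 genes, against 4295 of the 5738 in all, and the 2 with gaps are PRX1 and TRX2.

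Each of the 4 homemade arrays carried spotted double-stranded DNA probes, which do not tell the strands of a transcript apart. On each one, Cy3-labelled cDNA of RNA that came down on IgG Sepharose was hybridised with Cy5-labelled cDNA of total RNA from the same strain, both primed with oligo-dT. Both strains were of the W303 background and were in log phase in YPD. In WHI3-TAP the tag is on Whi3 under its own promoter, and in whi3-dRRM-TAP the same tagged protein lacks its RNA recognition motif, so both groups carry the TAP tag and an untagged strain was not analysed here. Each group had 2 arrays, 1 from each of 2 biological replicates taken as 2 experiments. No dyes were swapped, and a dye effect would therefore remain within each array's ratio and cancel only between the groups.

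Peroxiredoxins reduce hydrogen peroxide and alkyl hydroperoxides with a reactive cysteine, which is oxidised in turn. Thioredoxins reduce that cysteine again, and thioredoxin reductase recharges the thioredoxins with electrons from NADPH. In budding yeast Tsa1 is the abundant cytosolic peroxiredoxin and also a chaperone, and Hyr1 (also called Gpx3 or Orp1) passes the peroxide signal to the transcription factor Yap1.

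The arrays were not of equal quality. Between 76.7% and 86.5% of the yeast spots were used on 3 arrays, but 46.4% on Whi3-dRRM-TAP array 1. In the immunoprecipitate, 89.0% and 99.3% of the 4295 genes exceeded background on the Whi3-TAP arrays but 16.6% and 65.5% on the Whi3-dRRM-TAP arrays, where background was exceeded if the net intensity passed 2 background SDs. For total RNA it was 26.3% on Whi3-dRRM-TAP array 1 and between 64.5% and 66.3% on the others. Log ratios correlated at Pearson r = 0.842 between the Whi3-TAP arrays and 0.633 between the Whi3-dRRM-TAP arrays, over genes, which are not independent replicates. Of the 8 genes, 2 were above background in the immunoprecipitate of all 4 arrays, where 15.2% of all genes were, and 6 in total RNA, where 25.9% were.

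How much of each mRNA came down was measured as the log2 ratio of immunoprecipitate to total RNA after loess normalization, which sets it against mRNAs of the same brightness on the array. Of the 8 genes, 7 lay below 0 on both Whi3-TAP arrays, where 40.3% of all genes did, and 5 lay below 0 on both Whi3-dRRM-TAP arrays, where 32.8% did. On all 4 arrays 5 of the 8 lay below 0, against 20.2% of all genes. The choice of AHP1 and TSA1 is part of these counts, so nothing is read from them. The median of the 8 genes was -0.57 in the Whi3-TAP group and -0.27 in the other, beside 0.00 and 0.06 for all genes. Without AHP1 and TSA1, 5 of 6 genes lay below 0 on both Whi3-TAP arrays and 3 of 6 on both Whi3-dRRM-TAP arrays, with medians of -0.35 and 0.03. Both arrays of a group lay on one side of 0 and both of the other group on the opposite side for 2 of the 8 genes, DOT5 and TRX3, beside 16.9% of all genes.

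**Figure D1:**
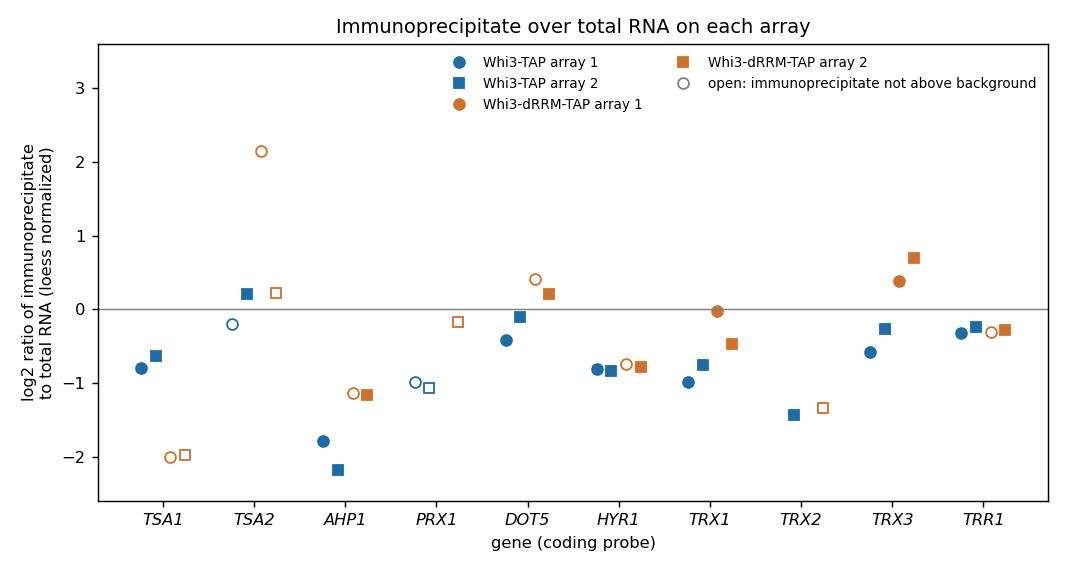
Log2 ratio of immunoprecipitate to total RNA (vertical axis) of the coding probe of each of the 10 genes (horizontal axis). Each point is 1 array, blue for Whi3-TAP and orange for Whi3-dRRM-TAP, circles for array 1 and squares for array 2, and an open point marks an immunoprecipitate not above background. The Whi3-TAP points of AHP1 are the lowest filled ones, and its Whi3-dRRM-TAP array 1 point is open. The TSA1 points with Whi3-dRRM-TAP near -2 are also open. TSA2 on Whi3-dRRM-TAP array 1 stands at 2.15 on a single spot. PRX1 and TRX2 lack points.

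AHP1, a peroxiredoxin that prefers alkyl hydroperoxides, had log ratios of -1.79 and -2.18 on Whi3-TAP arrays 1 and 2 and of -1.14 and -1.16 on Whi3-dRRM-TAP arrays 1 and 2. All 4 values lay far below 0, and both Whi3-TAP arrays lay below both Whi3-dRRM-TAP arrays. With Whi3-TAP its mean of -1.98 ± 0.28 (SD, n = 2) was the lowest of the 4295 genes, and total RNA exceeded the immunoprecipitate 3.96-fold on this scale. The next genes up were GCV3 at -1.96 and HOR7 at -1.95, so the margin was far smaller than the spread of AHP1 between its arrays. With Whi3-dRRM-TAP the mean was -1.15 ± 0.01 (SD, n = 2), rank 81 from the lowest. All 4 of its spots were used on every array, with SDs among spots of 0.10 and 0.09 on the Whi3-TAP arrays and of 0.43 and 0.13 on the Whi3-dRRM-TAP arrays. Its immunoprecipitate was above background on 3 arrays, the exception being Whi3-dRRM-TAP array 1, and its total RNA on all 4.

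TSA1 had log ratios of -0.80 and -0.64 on Whi3-TAP arrays 1 and 2 and of -2.0 and -1.98 on Whi3-dRRM-TAP arrays 1 and 2. The groups did not overlap, and the order was the opposite of that of AHP1. The measured mean with Whi3-dRRM-TAP was -1.99 ± 0.01 (SD, n = 2), between YIL039W at -2.66 and ADE5,7 at -1.95. With Whi3-TAP the mean was -0.72 ± 0.12 (SD, n = 2), rank 367 from the lowest. The immunoprecipitate of TSA1 was above background on both Whi3-TAP arrays and on neither Whi3-dRRM-TAP array, while its total RNA was above background on all 4. The measured Whi3-dRRM-TAP ratio of TSA1 is therefore no level, and its place as the second lowest of the 4295 genes is not supported. Total RNA was at least 2.18-fold higher than the immunoprecipitate there, a log ratio of at most -1.12 that would rank 86 from the lowest, with the dim signal raised to the higher of itself, 2 background SDs and the lowest signal of any gene above background. All 4 spots were used on each array, and their SD was 0.66 on Whi3-dRRM-TAP array 1 and between 0.04 and 0.18 on the other arrays.

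TSA2, a close paralog of TSA1, was not measured well. Its log ratios were -0.20 and 0.20 on Whi3-TAP arrays 1 and 2 and 2.15 and 0.22 on Whi3-dRRM-TAP arrays 1 and 2. Whi3-dRRM-TAP array 1 stands apart, and that value rests on 1 of 4 spots. Total RNA of TSA2 was above background on no array and the immunoprecipitate only on Whi3-TAP array 2, so no fold is given. The probes are PCR products and these paralogs are alike in sequence, and signal of one gene on the probe of the other was not tested.

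DOT5, the nuclear peroxiredoxin, had log ratios of -0.42 and -0.11 on Whi3-TAP arrays 1 and 2 and of 0.41 and 0.20 on Whi3-dRRM-TAP arrays 1 and 2. Both Whi3-TAP values were below 0 and both Whi3-dRRM-TAP values above it. Total RNA of DOT5 was above background on 2 of the 4 arrays, and neither channel was on Whi3-dRRM-TAP array 1. With no background correction the Whi3-dRRM-TAP mean was 0.05 instead of 0.31. Its spots disagreed, with SDs of 0.57 to 0.75 among the spots of an array, as wide as the difference between the groups.

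PRX1, the mitochondrial peroxiredoxin, had log ratios of -0.98 and -1.07 on Whi3-TAP arrays 1 and 2 and of -0.18 on Whi3-dRRM-TAP array 2. On Whi3-dRRM-TAP array 1 none of its 12 spots was used, since all carried a negative flag from the scanning software, and its immunoprecipitate was above background on 0 arrays and its total RNA on 1. With such flagged spots kept its values were -0.99 and -0.88 with Whi3-TAP and -0.29 and -0.33 with Whi3-dRRM-TAP, so the Whi3-TAP arrays lay lower there too, all at background.

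HYR1 had log ratios of -0.81 and -0.84 on Whi3-TAP arrays 1 and 2 and of -0.75 and -0.79 on Whi3-dRRM-TAP arrays 1 and 2. All 4 lay within a narrow band below 0. The means of -0.83 ± 0.02 and -0.77 ± 0.03 (SD, n = 2 each) ranked 256 and 325 from the lowest. The SD among the 4 spots reached 1.05 on Whi3-dRRM-TAP array 1, where its immunoprecipitate was not above background.

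The cytosolic thioredoxin TRX1 had log ratios of -0.98 and -0.76 on Whi3-TAP arrays 1 and 2 and of -0.02 and -0.47 on Whi3-dRRM-TAP arrays 1 and 2. It was the only one of the 10 genes other than TRX3 with both channels above background on every array. Both Whi3-TAP arrays lay below both Whi3-dRRM-TAP arrays, which lay farther from each other than the nearer one lay from Whi3-TAP array 2.

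TRX2, the second cytosolic thioredoxin, had no usable spot in experiment 1. In experiment 2 its log ratio was -1.43 from 1 spot with Whi3-TAP and -1.33 from 2 spots with Whi3-dRRM-TAP. With flagged spots kept it was -0.32 and -0.71 with Whi3-TAP and 0.36 and -0.65 with Whi3-dRRM-TAP, so its level moved by more than the gap between the groups. TRX1 and TRX2 are close copies, and signal of one on the probe of the other was not tested.

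TRX3, the mitochondrial thioredoxin, had log ratios of -0.58 and -0.26 on Whi3-TAP arrays 1 and 2 and of 0.39 and 0.69 on Whi3-dRRM-TAP arrays 1 and 2. The groups lay on opposite sides of 0, except that the Whi3-dRRM-TAP mean of 0.54 became -0.12 with median centring and -0.45 in the series matrix. The probe was limited by the scanner. In its median spot the share of saturated pixels in the immunoprecipitate was 0% and 60.5% on Whi3-TAP arrays 1 and 2 and 21.0% and 72.5% on Whi3-dRRM-TAP arrays 1 and 2. The share in total RNA was 55.0% and 72.5% with Whi3-TAP and 7.50% and 76.0% with Whi3-dRRM-TAP. Both channels were saturated in experiment 2 and no fold is given.

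TRR1, the cytosolic thioredoxin reductase, had log ratios of -0.33 and -0.24 on Whi3-TAP arrays 1 and 2 and of -0.31 and -0.29 on Whi3-dRRM-TAP arrays 1 and 2. The groups overlapped, and 9 or 10 of its 12 spots stood behind each value. Under each scaling tried, the mean ratios of AHP1, TSA1, HYR1, TRX1 and TRR1 stayed below 0 in both groups.

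Subtracting the Whi3-dRRM-TAP ratio from the Whi3-TAP ratio within each experiment gives the net log ratio, the measure by which the study asked which mRNAs bind Whi3 through its RNA recognition motif. TSA1 stood above 0 in both experiments, as 32.4% of all genes did, but against a control at background. AHP1 and 5 of the other genes lay below 0 in both, where 41.2% of all genes did, and TRR1 lay near 0. Of these 5, HYR1 had only -0.06 and -0.05, and TSA2 had -0.01 in experiment 2. Of the 6 genes that could be tested, 0 passed the blocked limma test at an adjusted p of 0.05, where 0% of the 4295 genes did, the smallest adjusted p of any gene being 0.0678. At an unadjusted p under 0.05 it was 1 of 6, TRX3, where 29.3% of all genes passed and 16.5% passed in its direction, lower with Whi3-TAP. Both Whi3-TAP arrays lay below both Whi3-dRRM-TAP arrays for 6 of the 8 genes and above them for 1, beside 34.2% and 26.6% of all genes. Without AHP1 and TSA1 it was 5 and 0 of 6. Among these, the nearest arrays of the groups stood at 0.20 and 0.22 for TSA2 and at -0.81 and -0.79 for HYR1. The median net log ratio of the 8 genes was -0.60, with -0.74 in experiment 1 and -0.17 in experiment 2, beside -0.09 for all genes. It was also -0.60 without AHP1 and TSA1, with -0.89 in experiment 1 and -0.17 in experiment 2. Those 6 genes include TSA2, above background in total RNA on no array, the saturated TRX3, and TRX1, whose direction turned with the scaling. The choice of AHP1 and TSA1 is part of each count and median of the 8 genes, so nothing is read from those. The median of the 8 depended on the scaling, with -0.18 after median centring and 0.03 in the series matrix.

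**Figure D2:**
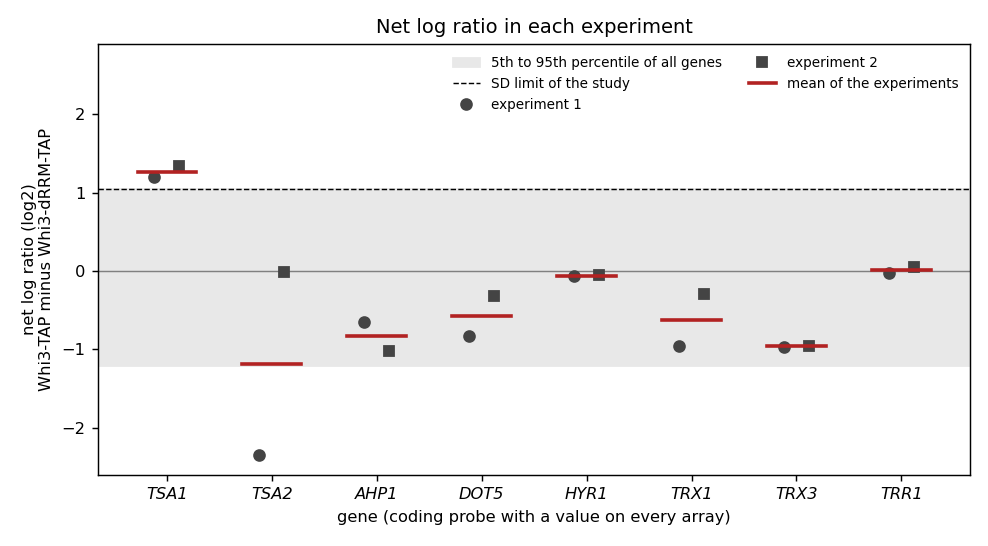
Net log ratio (vertical axis, log2, Whi3-TAP minus Whi3-dRRM-TAP) of the 8 genes measured on all 4 arrays (horizontal axis). Circles and squares are experiments 1 and 2, red bars their mean and the grey band the 5th to 95th percentile of all 4295 genes. The dashed line is the study's rule, 1.65 SD above the mean, applied to the values obtained here. The mean of TSA1 lies above the line at 1.27, measured against a control not above background, that of TRR1 at 0.01, and TSA2 has 1 experiment at -2.35 and the other at -0.01.

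TSA1 had net log ratios of 1.20 in experiment 1 and 1.34 in experiment 2, with a mean of 1.27 ± 0.10 (SD, n = 2), rank 122 from the highest. As measured this was past 1.05, which 215 genes (5.01%) reached. That limit is the study's rule, 1.65 SD above the mean over genes, applied to the net log ratios obtained here. The cutoff that the rule gave on the study's own values was not used. The immunoprecipitate of TSA1 was not above background on either Whi3-dRRM-TAP array, and with it raised to its bound the net log ratio was at least 0.40, with at least 0.17 and 0.63 in experiments 1 and 2. These bounds lie under the limit of 1.05, so passing it is not supported. In the immunoprecipitate channel TSA1 was at least 1.47-fold higher with Whi3-TAP. Its net log ratio ranged from 0.57 with no background correction to 1.79 in the series matrix.

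AHP1 had net log ratios of -0.65 in experiment 1 and -1.02 in experiment 2, with a mean of -0.83 ± 0.26 (SD, n = 2), rank 3772 of 4295 from the highest. It did not reach the lower limit, 1.65 SD below the mean over genes or -1.21, which 0 of the 8 genes and 5.05% of all genes did. It moved to -0.40 with median centring and -0.10 in the series matrix, and to -1.16 with no background correction.

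TRX3 had net log ratios of -0.96 and -0.95 in experiments 1 and 2. The mean was -0.96 ± 0.01 (SD, n = 2), with a 95% interval of -1.51 to -0.41 and an adjusted p of 0.0866 (limma). This is the largest distance from 0 relative to its error among the 6 tested genes, on a saturated probe. Its adjusted p ranged from 0.000977 to 0.493 over the alternatives, and its net log ratio stayed below 0 in all 12 of them. With the saturated spots left out it has no value on every array.

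TRX1 had net log ratios of -0.96 and -0.29, with a mean of -0.62 ± 0.47 (SD, n = 2), a 95% interval of -1.33 to 0.08 and an adjusted p of 0.203 (limma). Its direction turned with the scaling, to 0.08 with median centring and 0.37 in the series matrix. Without Whi3-dRRM-TAP array 2 its adjusted p was 0.0275.

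DOT5 had net log ratios of -0.83 and -0.31, with a mean of -0.57 ± 0.36 (SD, n = 2), a 95% interval of -1.22 to 0.08 and an adjusted p of 0.203 (limma). It stayed below 0 in all 13 alternatives, from -0.72 to -0.28.

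For TSA2 the net log ratios were -2.35 and -0.01, with a mean of -1.18 ± 1.65 (SD, n = 2), a 95% interval of -2.84 to 0.48 and an adjusted p of 0.271 (limma). Experiment 1 carries the value through the single spot described above. The adjusted p was 0.00128 without Whi3-dRRM-TAP array 2 and 0.0374 with flagged spots kept.

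TRR1 and HYR1 had the net log ratios nearest to 0 of the 8 genes. TRR1 had net log ratios of -0.02 and 0.05 and a mean of 0.01 ± 0.05 (SD, n = 2). Its 95% interval ran from -0.54 to 0.57, with an adjusted p of 0.966 (limma), and the series matrix gave 0.61. HYR1 had net log ratios of -0.06 and -0.05 and a mean of -0.06 ± 0.01 (SD, n = 2). Its 95% interval ran from -0.61 to 0.49, with an adjusted p of 0.862 (limma). A difference within these intervals was not detectable with 2 arrays a group, so the genes are not shown to be alike in the strains.

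In experiment 2 alone, PRX1 had a net log ratio of -0.89 and TRX2 of -0.10. With flagged spots kept PRX1 had -0.62 ± 0.10 and TRX2 -0.37 ± 0.44 (SD, n = 2 each), PRX1 again from signals near background.

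A net log ratio can come from either channel, so the difference between the strains was also taken in each channel after normalization between arrays. For TSA1 the larger measured difference was in the immunoprecipitate and for AHP1 in total RNA. The immunoprecipitate of TSA1 differed by 1.83 and 1.02 log2 units in experiments 1 and 2, against Whi3-dRRM-TAP signals not above background, so that only the bound of at least 1.47-fold stands, while its total RNA differed by 0.63 and -0.32, in opposite directions. The immunoprecipitate of AHP1 differed by 0.39 and -0.32, in opposite directions, while its total RNA was higher with Whi3-TAP by 1.03 and 0.70. The 0.39 of experiment 1 was against a Whi3-dRRM-TAP immunoprecipitate not above background, so its sign is not certain. Over all genes the median difference was 0.23 in the immunoprecipitate and 0.31 in total RNA, and relative to these TSA1 stood at 1.20 and -0.16 and AHP1 at -0.19 and 0.55.

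**Figure D3:**
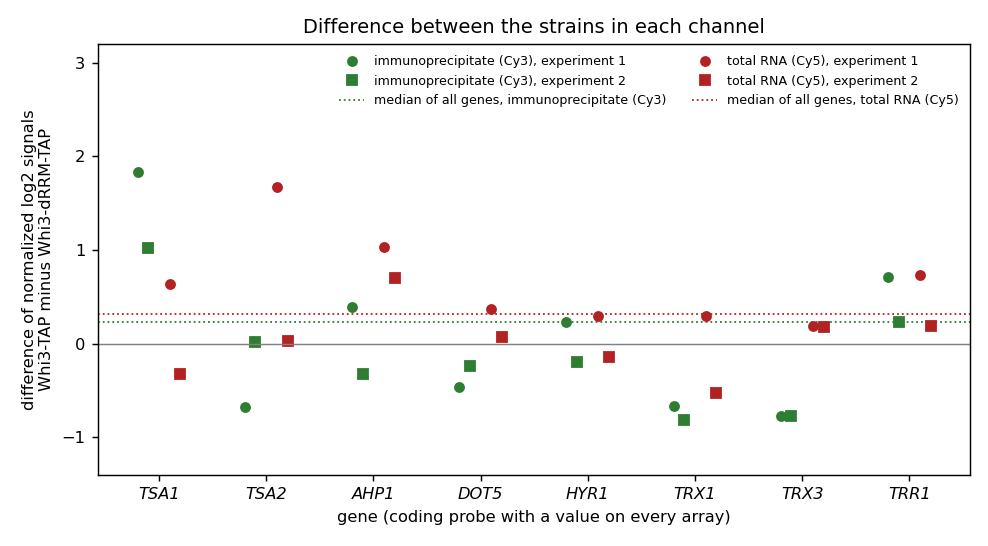
Difference in normalized log2 signal between the strains (vertical axis, Whi3-TAP minus Whi3-dRRM-TAP) for the 8 genes measured on all 4 arrays (horizontal axis). Green points are the immunoprecipitate and red points total RNA, circles experiment 1 and squares experiment 2, and dotted lines the medians of all genes. TSA1 has green points at 1.83 and 1.02 against a control not above background, AHP1 in red at 1.03 and 0.70, and TRX1 and TRX3 lie below 0 in green in both experiments.

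The thioredoxins resembled neither. TRX1 had differences of -0.66 and -0.82 in the immunoprecipitate in experiments 1 and 2, and its total RNA differed by 0.29 and -0.52. TRX3 differed by -0.77 and -0.77 in the immunoprecipitate and by 0.19 and 0.18 in total RNA, within the limit its saturation sets. DOT5 differed by -0.46 and -0.24 in the immunoprecipitate and by 0.37 and 0.07 in total RNA.

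TRR1 moved in both channels alike, by 0.71 and 0.24 in the immunoprecipitate and by 0.73 and 0.18 in total RNA. The channels of HYR1 also moved alike, but in opposite directions in the 2 experiments, with 0.23 and -0.20 in the immunoprecipitate and 0.30 and -0.15 in total RNA. Relative to the medians of all genes TRR1 stood at 0.25 and 0.14 in the immunoprecipitate and total RNA, and HYR1 at -0.21 and -0.24. The immunoprecipitate of both was not above background on Whi3-dRRM-TAP array 1.

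In total RNA 0 of the 6 tested genes passed the limma test at an adjusted p of 0.05, where 82 genes (1.91%) were higher and 4 (0.0931%) lower with Whi3-TAP. At an unadjusted p under 0.05 it was 1 of 6, TSA2, where 15.6% of all genes passed and 15.1% passed in its direction, higher with Whi3-TAP. Total RNA was higher with Whi3-TAP in both experiments for 5 of the 8 genes and lower in both for 0, where 62.8% and 5.40% of all genes were, and their median difference of 0.20 lay under the 0.31 of all genes. The differences of the 6 tested genes were TSA2 0.85 ± 1.16, TRR1 0.46 ± 0.39, DOT5 0.22 ± 0.21, TRX3 0.19 ± 0.01, HYR1 0.08 ± 0.31 and TRX1 -0.12 ± 0.58 (SD, n = 2 each), with adjusted p from 0.112 for TSA2 to 0.903 for HYR1. Only that of TSA2 exceeded the median of all genes by more than the standard error of 0.30 that the fit gave to each gene, and TSA2 was above background in total RNA on no array. TRX1 lay below that median by more than the same error, at -0.43 relative to it. Less RNA per cell and fewer cells at a stage that makes it cannot be told apart in total RNA of a culture.

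The genes TSA1, TSA2 and TRR1 also had a probe for the 3′ UTR, which the choice of genes did not use. For TRR1 both probes gave a net log ratio near 0, 0.01 ± 0.05 from the coding probe. Its 3′ UTR probe had log ratios of 0.42 and 0.03 on Whi3-TAP arrays 1 and 2 and of 0.46 and 0.11 on Whi3-dRRM-TAP arrays 1 and 2, a net of -0.06 ± 0.03 (SD, n = 2). On every array it lay above the coding probe, by 0.75 and 0.27 with Whi3-TAP and by 0.76 and 0.39 with Whi3-dRRM-TAP. Its 3′ UTR probe was above background in both channels only in experiment 2, where the gaps were 0.27 and 0.39. Its total RNA was dim on Whi3-TAP array 1, and both its channels were dim on Whi3-dRRM-TAP array 1. Among 96 genes whose probes both had values on each array, 26.0% lay higher with the 3′ UTR probe on all 4, and their median gap was 0.18.

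TSA1 gave a smaller value with its other probe. The 3′ UTR probe had log ratios of -0.25 and -0.62 on Whi3-TAP arrays 1 and 2 and of -0.88 on Whi3-dRRM-TAP array 2, with 0 of 4 spots used on Whi3-dRRM-TAP array 1. Its values lay below 0 on the 3 arrays that gave one. It was above background in both channels on the arrays of experiment 2 and in neither on Whi3-TAP array 1. In experiment 2 its net log ratio was 0.25, where the coding probe gave at least 0.63. With flagged spots kept its net log ratios were -0.15 and 0.26, of opposite sign. The net log ratio of TSA1 rests on its coding probe.

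The 3′ UTR probe of TSA2 had log ratios of 0.01 and 0.08 on Whi3-TAP arrays 1 and 2 and of -0.43 on Whi3-dRRM-TAP array 2. Its net log ratio in experiment 2 was 0.51, where the coding probe gave -0.01. Both channels of that probe were above background on Whi3-TAP array 2 alone. Both probes gave values near 0 with Whi3-TAP.

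**Figure D4:**
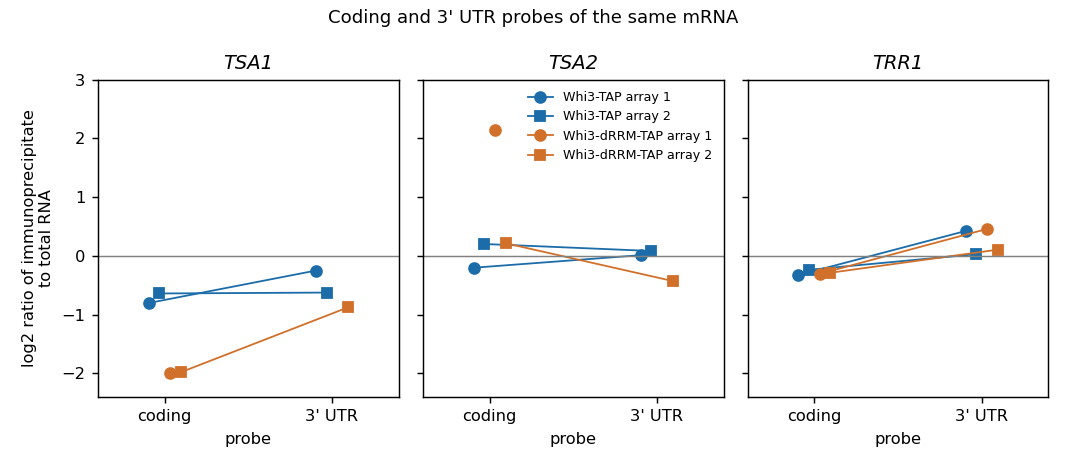
Log2 ratio of immunoprecipitate to total RNA (vertical axis) of the coding probe and the 3′ UTR probe (horizontal axis) of TSA1, TSA2 and TRR1. Each line joins the probes on 1 array, blue for Whi3-TAP and orange for Whi3-dRRM-TAP, circles for array 1 and squares for array 2. The TRR1 lines all run upwards, the orange TSA1 line starts at a coding value not above background, and neither TSA1 nor TSA2 has a 3′ UTR value on Whi3-dRRM-TAP array 1.

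The genes whose pattern over the 4 arrays was most like that of AHP1 and TSA1 were found by Euclidean distance between log ratios, among 2477 genes above background in total RNA on at least 3 arrays. For AHP1 they were SSA1, a cytosolic Hsp70 chaperone, at a distance of 0.41, RPL15A, a ribosomal protein of the large subunit, at 0.42, ABF2, a packaging protein of mitochondrial DNA, at 0.56, BGL2, a cell wall glucanase, at 0.65, and DLD3, of the D-lactate dehydrogenase family, at 0.65. SSA1 had -1.95 and -1.84 with Whi3-TAP and -1.29 and -1.18 with Whi3-dRRM-TAP. It was lower with Whi3-TAP like AHP1, which its choice by distance to AHP1 favours. SSA1 and RPL15A have near-identical copies whose signal their probes may share.

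TSA1 had no neighbour as near by its measured ratios, which with Whi3-dRRM-TAP rest on an immunoprecipitate not above background. The 5 nearest were YER156C at 0.77, ADE5,7, a purine synthesis enzyme, at 0.82, ACB1, the acyl-CoA-binding protein, at 0.87, TOS1, a cell wall protein, at 0.89, and YML079W at 0.93. ADE5,7 had -1.12 and -0.90 with Whi3-TAP and -2.46 and -1.44 with Whi3-dRRM-TAP. All 5 were higher with Whi3-TAP, which a choice by distance over these same ratios favours, so nothing is read from it. All 5 also lay below the bound of TSA1, at most -1.12, on both Whi3-dRRM-TAP arrays.

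A wider list of 43 genes of thiol and peroxide metabolism was set beside the 10. It includes glutathione and glutaredoxin genes, superoxide dismutases, catalases, Yap1 and genes of the pentose phosphate pathway, which supplies NADPH. It also includes TRR2, SRX1, MXR1, MXR2, MET16, CCP1, SKN7, YBP1, ALD6, POS5 and IDP2. Of these, 36 had a probe and 28 a value on every array. The net log ratio was above 0 in both experiments for 11 of the 28 and below 0 in both for 10, beside 32.4% and 41.2% of all genes, with a median of 0.04 beside -0.09. None passed at an adjusted p of 0.05 (limma), where 0% of all genes did, and 13 passed at an unadjusted p under 0.05, where 29.3% did.

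SOD2, the mitochondrial superoxide dismutase, had the highest net log ratio of the list at 1.29 ± 0.06 (adjusted p 0.0706, limma). ALD6, an aldehyde dehydrogenase that makes NADPH, had 1.20 ± 0.17 (0.0739), and RKI1, a pentose phosphate isomerase, 1.19 ± 0.45 (0.0876). With POS5, a mitochondrial NADH kinase at 1.08 ± 0.33 that is named here after its value was seen, these were the 4 of 28 genes above the SD limit, which 5.01% of all genes reached. SOD2 was above background in the immunoprecipitate of both Whi3-dRRM-TAP arrays, but ALD6, RKI1 and POS5 on only 1. The net log ratios of ALD6, RKI1 and POS5 thus rest partly on a control not above background. The lowest were GLR1, the glutathione reductase, at -1.17 ± 0.13 (0.0750), TKL1, the transketolase, at -1.03 ± 0.12 (0.0817), and SOL3, a 6-phosphogluconolactonase, at -1.02 ± 0.02 (0.0817), where ± is the SD of 2 experiments. None of the 28 reached the lower limit of -1.21. GLR1 and TRR1, the reductases of the glutathione and thioredoxin systems, had net log ratios of -1.17 and 0.01, a difference that was not itself tested. GLR1 is named here as the lowest of the 28, so nothing is read from the contrast. Each was above background in the immunoprecipitate of only 1 Whi3-dRRM-TAP array, and GLR1 in total RNA on 3 arrays. In the series matrix TRR1 had 0.61.

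**Figure D5:**
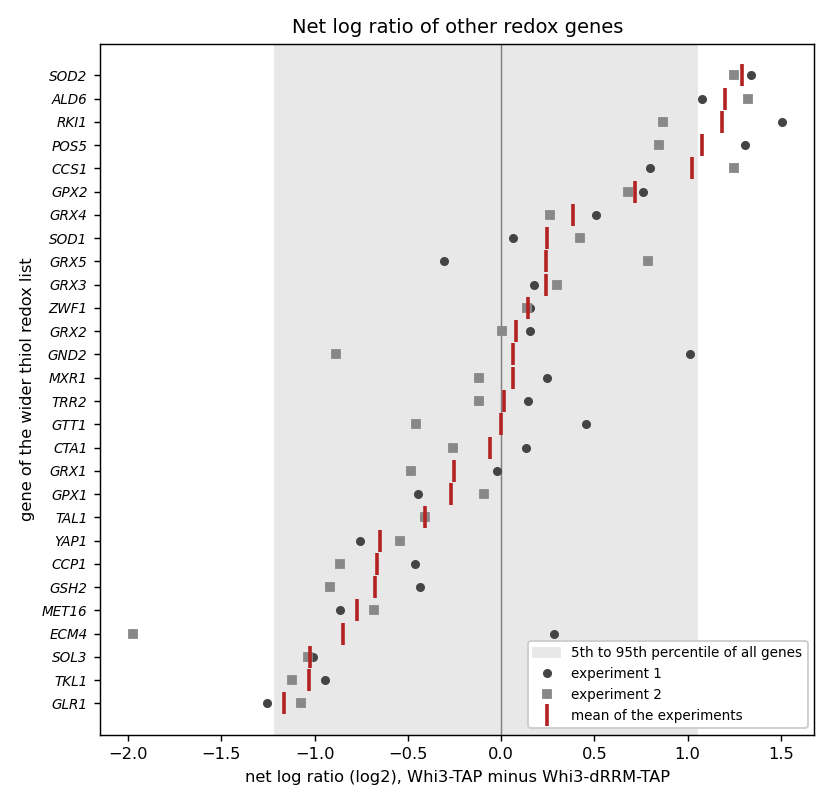
Net log ratio (horizontal axis, log2) of the 28 genes of the wider list with a value on every array, ordered by their mean (vertical axis). Black circles and grey squares are experiments 1 and 2, red marks their mean and the grey band the 5th to 95th percentile of all genes. The means run from -1.17 for GLR1 to 1.29 for SOD2, with genes spread over both sides of 0.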

How the data were processed

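RNA from immunoprecipitates and total RNA of 2 strains was measured on 4 arrays with 2 dyes, read on a GenePix 4000B scanner with GenePix Pro 5.1. Per the file headers, the deposited scans give unnormalized foreground and background intensity per spot and channel, and the percent of saturated pixels. The authors' deposited series matrix gives a log2 ratio per probe, which follows immunoprecipitate over total RNA (r from 0.762 to 0.949 with the scanner values). Its columns are not centred, with medians of 0.247 and 0.222 in the Whi3-TAP group and of 1.08 and 0.520 in the other. It was centred here and used only as an alternative. No positions are given, since the files do not name a build. All 10 genes matched RefSeq R64 by systematic name.

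Spots with a negative GenePix flag were left out. The rest were corrected by normexp with an offset of 50, normalized by loess within each array and averaged per probe, with limma 3.58.1 in R 4.3.3, version 1.17.8 of data.table and jsonlite 2.0.0. Figures used Python 3.11.15, matplotlib 3.10.9 and pandas 2.3.3. Net log ratios were fitted in limma (lmFit, eBayes; 2-sided tests), the experiment serving as block, which leaves 1 residual degree of freedom and a prior of 3.17. The methods of the study subtract the control within an experiment, and the block follows them. P-values were adjusted by Benjamini-Hochberg over 4295 genes. Total RNA was compared in Cy5 after Aquantile normalization, and the fit of that comparison gave every gene the same variance. Replicates are labelled biological, and precision is limited by the number of arrays. The code of the net log ratio test was run on simulated data with known differences.

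The genes, the wider list and the tests were chosen with earlier results of these data known. Named genes are the 10, the 3 highest and 3 lowest net log ratios of the wider list, and the 5 nearest patterns to AHP1 and to TSA1. Motifs in coding sequences were not analysed here. Alternatives were other background corrections, normalizations, spot filters and designs, and each array left out.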

Additional observations from a re-analysis of the deposited data

Results flagged for a closer look

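The ratio of immunoprecipitate to total RNA had both Whi3-TAP arrays on one side of 0 and both Whi3-dRRM-TAP arrays on the other for 2 of the 8 genes measured on every array, 8 of 28 in the wider list and 724 (16.9%) of all 4295. Only the genes named by rule are given here. Among the 10 genes these were DOT5 and TRX3. DOT5, dim in total RNA on 2 of 4 arrays, had a net log ratio of -0.57 and an adjusted p of 0.203. TRX3, saturated in both channels in experiment 2, had -0.96 and 0.0866 (limma, the test of the difference itself). Of the 6 named genes of the wider list, those on opposite sides were SOD2 with 1.29 (adjusted p 0.0706), RKI1 with 1.19 (0.0876), SOL3 with -1.02 (0.0817) and TKL1 with -1.03 (0.0817). None of these differences passed at an adjusted p of 0.05. The opposite sides of TRX3 depended on the scaling, since its Whi3-dRRM-TAP mean became -0.12 with median centring and -0.45 in the series matrix. SOD2 had log ratios of 1.09 and 0.95 with Whi3-TAP and of -0.25 and -0.30 with Whi3-dRRM-TAP, and was above background in the immunoprecipitate of all 4 arrays. SOL3 had -0.69 and -0.35 with Whi3-TAP and 0.32 and 0.68 with Whi3-dRRM-TAP, also above background in the immunoprecipitate on all 4. RKI1 and TKL1 were above background in the immunoprecipitate of only 1 Whi3-dRRM-TAP array, and TKL1 in total RNA on 3 arrays.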

How the results depend on the processing

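With median centring the median net log ratio of the 8 genes moved from -0.60 to -0.18, their median ratio in Whi3-TAP to -0.99 and that in Whi3-dRRM-TAP to -0.95, and in the series matrix these were 0.028, -1.12 and -1.29. In these settings the net log ratio of HYR1 became 0.034 and 0.028, and that of TRX1 0.075 and 0.37. That of TRR1 became -0.066 with no background correction and -0.042 with print-tip loess, and lay between -0.031 and 0.060 with 1 array left out. The cause was not tested.

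The net log ratio was significant (limma) for 0 genes with the experiment as a block, and for 71 higher and 61 lower with no replicate block, none of them among the 6 tested genes. The deviations of the arrays within an experiment correlated at r = 0.218 over genes, which leaves the pairing unsettled. The counts were 184 and 249 with dim genes left out, 341 and 333 with no background correction, 54 and 46 with median centring, 534 and 517 with flagged spots kept, and 588 and 258 in the series matrix. With 1 array left out, in a fit with no block that assumes the lone array of a group to vary like the other group, they ran from 0 to 618 higher and 0 to 912 lower, with 266 and 264 without Whi3-dRRM-TAP array 1 and 618 and 912 without Whi3-dRRM-TAP array 2. Above the SD limit were 141 genes with dim genes left out, a setting that tests fewer genes and drops TSA1 and TSA2. TSA2 has no value in the series matrix. TRX3 passed (limma) with dim genes left out (adjusted p 0.0412), with flagged spots kept (0.000977) and with no background correction (0.0147). Its net log ratio was -1.11 without Whi3-dRRM-TAP array 1 and -0.81 without Whi3-dRRM-TAP array 2. All of these values rest on its saturated spots, and with those left out TRX3 has no value on every array.

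In total RNA the 82 genes higher and 4 lower became 0 and 0 with no replicate block, with flagged spots kept and after centring on the gene median, a setting chosen after seeing the data, and 206 and 10 with no background correction. With 1 array left out they ran from 0 to 197 and from 0 to 7, with 197 and 7 without Whi3-dRRM-TAP array 2 and 0 and 0 without any one of the other arrays. With flagged spots kept and with centring the total RNA difference was -0.23 and -0.068 for DOT5 and -0.33 and -0.22 for HYR1, and with centring it was -0.10 for TRX3. In these settings the median difference of all genes itself fell from 0.31 to 0.00017 and 0.023. Relative to that median DOT5, HYR1 and TRX3 stood below 0 in the main setting too, at -0.09, -0.24 and -0.13. With 1 array left out the total RNA difference ran from -0.12 to 0.27 for HYR1 and from -0.34 to 0.11 for TRX1. TSA2 passed in total RNA without Whi3-dRRM-TAP array 2 (adjusted p 0.0448).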
